A study of Dreissena polymorpha with 11 samples.

Results

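Gonads of both sexes were compared with gill in zebra mussels (Dreissena polymorpha), freshwater bivalves, using 5 of the 11 arrays of the series: 2 male gonad arrays and 1 female gonad array against 2 gill arrays. The arrays were chosen by their titles, with earlier results of these data known. All animals were untreated, and no age is given for these tissues. Each array was hybridised with Cy3-labelled product made from 500 ng of total RNA. The 2 male gonad arrays were labelled male and the female gonad array female, whereas gill 1 was labelled female and gill 2 male by the gender label, and another label calls both gill samples female. The labels do not say whether replicate arrays hold RNA of different animals, so a p-value here reflects array-to-array spread that could be purely technical. In whole-organ RNA, fewer cells of a type and less RNA per cell cannot be told apart.

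Zebra mussels have separate sexes and shed eggs and sperm into the water, and their gonads are filled with germ cells at successive stages of maturation. The gill is a sheet of ciliated filaments that pumps water, captures food particles and exchanges gases and ions. The array names its targets by sequence identifiers and, apart from the symbol RXR, pairs none of them with a gene. The identity of the dissected tissues could therefore not be checked against marker genes, and the results below are given by probe, by sequence and by the leading letters of the identifier. These letters (EY, AM, AJ) are those of the identifiers only and say nothing about function.

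The arrays held 13654 probes for 3541 sequences, of which 11280 probes were EY, 1389 AM, 532 AJ and 453 had other identifiers. Between 4533 and 5687 probes were called well above background by the scanning software on the 3 gonad arrays, against 4403 and 4537 on the gill arrays. On all 3 gonad arrays 4211 probes were detected in this way, and on both gill arrays 3843. Signals are given as relative log2 signal, which is the log2 of the processed signal minus the array's 75th percentile over the 3249 probes detected on all 9 adult arrays. The arrays lay on 3 slides. Gill 1 was alone on slide 3, male gonad 1 was on slide 1, and male gonad 2, female gonad 1 and gill 2 shared slide 2.

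Of 4578 probes detected on all gonad arrays or on both gill arrays, 323 were called (7.06%, limma, Benjamini-Hochberg adjusted p below 0.05), 122 higher in gonads (2.66%) and 201 lower (4.39%). Without AM identifiers, in a fit of the remaining 3880 probes, 300 were called (7.73%), 83 higher (2.14%) and 217 lower (5.59%). All 275 non-AM calls of the first fit were called with the same sign in the second, which added 25. Of the first fit's calls, 43 of the 122 higher calls and 5 of the 201 lower calls were AM probes. The median difference over all tested probes was -0.27 log2 units, and 40.06% of them lay above 0. Without AM probes the median was -0.39.

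**Figure D1:**
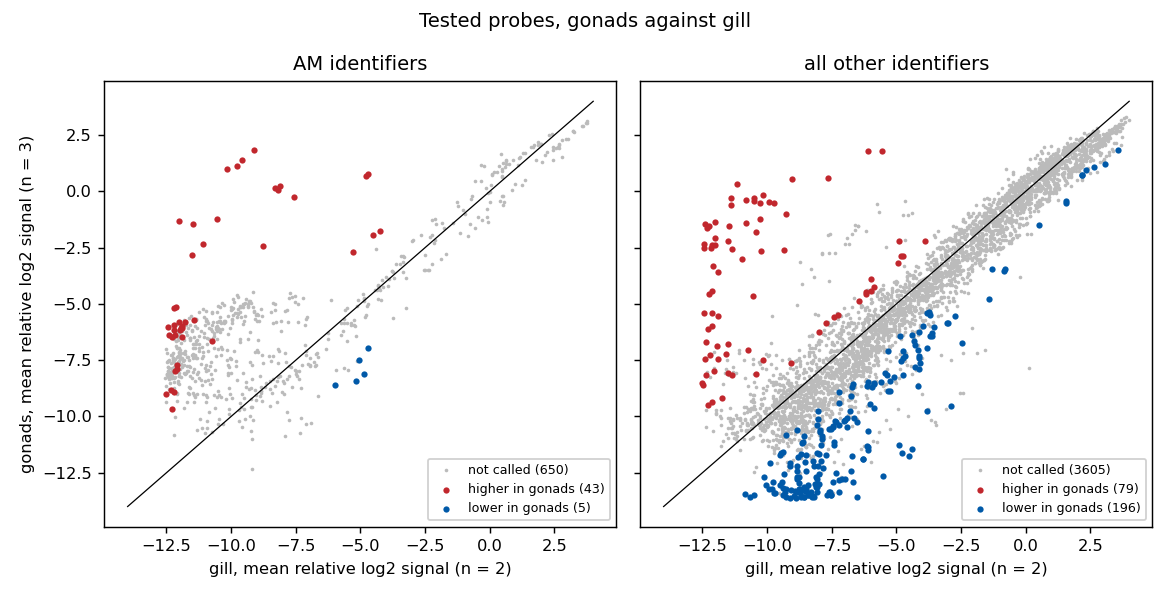
Mean relative log2 signal in gonads (vertical axis, n = 3) against gill (horizontal axis, n = 2) for 4578 tested probes, with AM identifiers on the left and all others on the right, and the line of equality. The 43 AM probes called higher lie well above the line among many uncalled AM probes, while the 196 non-AM probes called lower form a band below the line that is densest at low gonad signal.

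The balance of higher and lower calls depended on how the arrays were scaled. With the 75th percentile over all probes, 91 were called higher and 96 lower, and without AM identifiers 138 higher and 113 lower. Quantile normalization gave 142 higher and 133 lower without AM identifiers. Without male gonad 1 the fit of all identifiers called 176 of 4888 tested probes (83 higher, 93 lower). Leaving out gill 1 let in probes that gill 2 but not gill 1 detected, with 5093 tested. The median difference was then -0.38 log2 units, and -0.51 over 4340 tested probes without AM identifiers. Leaving out gill 2 gave -0.425 over 4995 tested probes, and -0.579 over 4281 without AM identifiers. These medians lie further below 0 than the -0.27 and -0.39 of the fits on all arrays. With the slide as a block the 2 fits called 129 probes (66 higher, 63 lower) and 148 probes (57 higher, 91 lower).

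The groups did not overlap for 1983 of the 4578 tested probes (43.3%), with all gonad arrays above both gill arrays for 822 (18%) and below them for 1161 (25.4%). All 122 higher calls and all 201 lower calls were among these. Within slide 2, where 2 gonad arrays and 1 gill array lay, the 323 called probes all kept their sign, with a median difference of 6.51 log2 units for the higher and -3.24 for the lower calls. The same arrays took part in the calls, and these values are a description.

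The higher calls were mostly probes that read dark in gill. Of the 122, 76 were well above background on no gill array, 13 on 1 and 33 on both. The 33 measured on both sides were higher in gonads by 2.73-fold to 1988-fold, with a median of 5.88-fold. For the 76 that were dark in gill only a lower bound can be given, taken as the gonad mean against, on each gill array, whichever was higher, the dimmest detected probe or the probe itself. These bounds ran from at least 2.67-fold to at least 2550-fold, with a median of 35.9-fold. The gill SD of the higher calls had a median of 0.23 log2 units, against 0.44 over all tested probes. In all, 418 tested probes were dark on both gill arrays and 76 of them were called. Such probes were tested only because gonads detected them.

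The lower calls held both probes that gonads detected and probes that were dark there. Of the 201, 82 were detected on every gonad array, 44 on some and 75 on none. The 82 were lower in gonads by 1.40 to 4.56 log2 units, with a median of 2.64. The 75 that were dark in gonads were at least 2.61-fold to at least 52.9-fold higher in gill, with a median bound of 11.6-fold. In all, 91 tested probes were dark on every gonad array and 75 of them were called, and such probes were tested only because gill detected them. The bottom of the scale itself lay lower on gonad arrays. The 6353 probes detected on no adult array had median relative log2 signals of -13.33, -13.85 and -13.22 on male gonad 1, male gonad 2 and female gonad 1, against -12.21 and -12.17 on gill 1 and gill 2. The lowest detected levels used for the bounds were likewise lower on the gonad arrays, at -12.12, -12.74 and -11.87, against -11.08 and -11.08 on gill 1 and gill 2. Both the fitted differences and the bounds of probes that were dark in gonads carry this offset between arrays. Those of probes that were dark in gill carry it as well. Among the 3476 probes detected on all 5 arrays, 239 were over 2-fold higher in gonads (6.88%) and 731 over 2-fold lower (21.0%), and a fit on them alone called 76 probes, 18 higher and 58 lower.

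**Figure D2:**
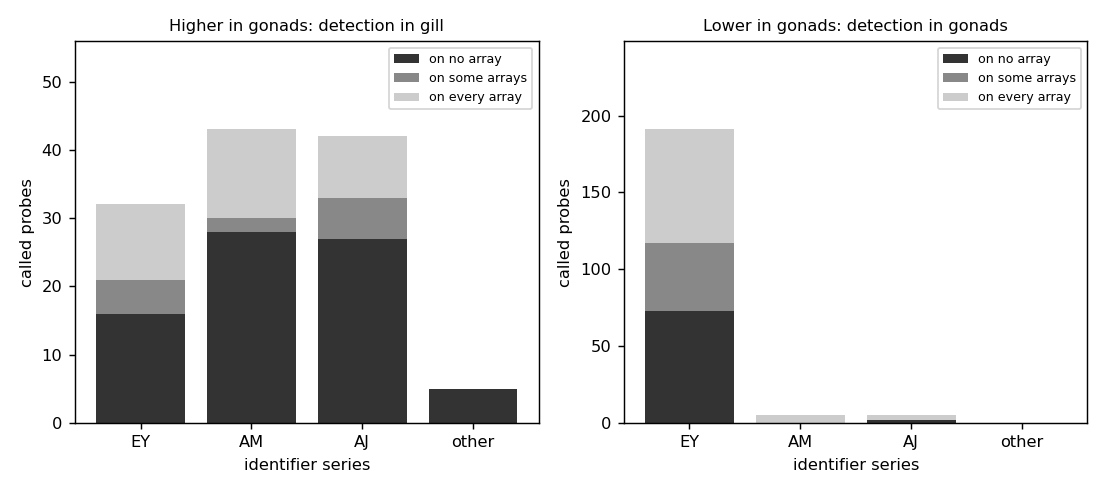
Numbers of called probes (vertical axes) by identifier series, higher in gonads on the left and lower on the right, shaded by whether they were well above background on no, some or every array of the lower side. Of 43 AM probes and 42 AJ probes called higher, 28 and 27 were detected on no gill array, and 191 of the 201 lower calls were EY probes.

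Among EY probes, the largest series, calls lower in gonads outnumbered calls higher under the 4 scalings run, with and without AM identifiers, although the median of the series changed sign under 1 of them. Of 3388 tested, 191 were called lower in gonads (5.64%, against 4.39% of all tested probes) and 32 higher (0.945%, against 2.66%). EY probes made up most of the tested probes, so their lower share stands close to the overall one. Their median difference was -0.50 log2 units (quartiles -1.13 and 0.13), against -0.27 over all tested probes. The EY medians were -5.30, -4.55 and -4.91 on male gonad 1, male gonad 2 and female gonad 1, against -4.23 and -4.54 on gill 1 and gill 2. Male gonad 2 and gill 2 thus differed little in EY level, and the groups were separated narrowly. With the 75th percentile taken over all probes and AM identifiers left out, 70 EY probes were called higher and 113 lower, and the EY median was 0.29 log2 units. Across the other scalings, with and without AM identifiers, it lay between -0.59 and -0.09. Lower calls came from 126 EY sequences, of which 41 had a single tested probe. All tested probes were called in 28 of the other 85, and only 1 was called in 40.

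AJ probes had the highest share of higher calls of the 3 large series. Of 375 tested, 42 were called higher (11.2%, against 2.66% of all tested probes) and 5 lower. The 42 came from 12 sequences that had 48 tested probes in all, so nearly every probe of these sequences was called, and in 7 of the 12 all were. Their relative log2 signal in gonads had a median of -3.09, against -11.43 in gill. Over all tested AJ probes the shift was small, with medians of -5.49, -5.63 and -5.28 on male gonad 1, male gonad 2 and female gonad 1, against -6.44 and -5.99 on gill 1 and gill 2. The median difference was 0.11 log2 units, and across the scalings run it lay between 0.02 and 0.90, with 31 to 54 probes called higher and 0 to 5 lower. Between 95.7% and 98.1% of them were detected on a gonad array, against 78.7% and 84% on gill 1 and gill 2. Over all tested probes these shares were 93.5% to 97.2%, against 87.0% and 87.8%. Digestive gland 1 and 2 detected 94.1% and 96% of the AJ probes, and the female and male half-body samples 89.6% and 93.1%. The filter itself asks for detection on all gonad arrays or both gill arrays, so these shares are a description. The lowest detected relative log2 signal was also higher on the gill arrays than on the other adult arrays. Of the 375, 45 were dark on both gill arrays.

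Among AM probes the gonad arrays disagreed with each other. Their medians were -8.49 on male gonad 1, -2.91 on male gonad 2 and -7.40 on female gonad 1, against -10.14 and -9.67 on gill 1 and gill 2. Male gonad 2 stood far above both other gonad arrays, and all 3 stood above gill. On the other adult arrays the AM medians were -7.81 and -3.10 in digestive gland 1 and 2, and -6.46 and -5.09 in the female and male half-body samples. The median difference of gonads from gill was 2.71 log2 units over 698 tested probes, while the median SD within gonads was 1.89, against 0.56 for EY probes. Called higher were 43 probes (6.16%, against 2.66% of all tested probes) from 16 sequences, and 278 of the 698 were dark on both gill arrays, against 418 of all 4578. Across the scalings run the AM median lay between 2.61 and 3.15 log2 units, with 35 to 43 probes called higher. The number detected varied less than the level, with 691, 696 and 691 AM probes detected on male gonad 1, male gonad 2 and female gonad 1, against 337 and 384 on gill 1 and gill 2. The filter itself asks for detection on all gonad arrays or both gill arrays, so these counts are a description. As for AJ probes, the lowest detected relative log2 signal was higher on the gill arrays.

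**Figure D3:**
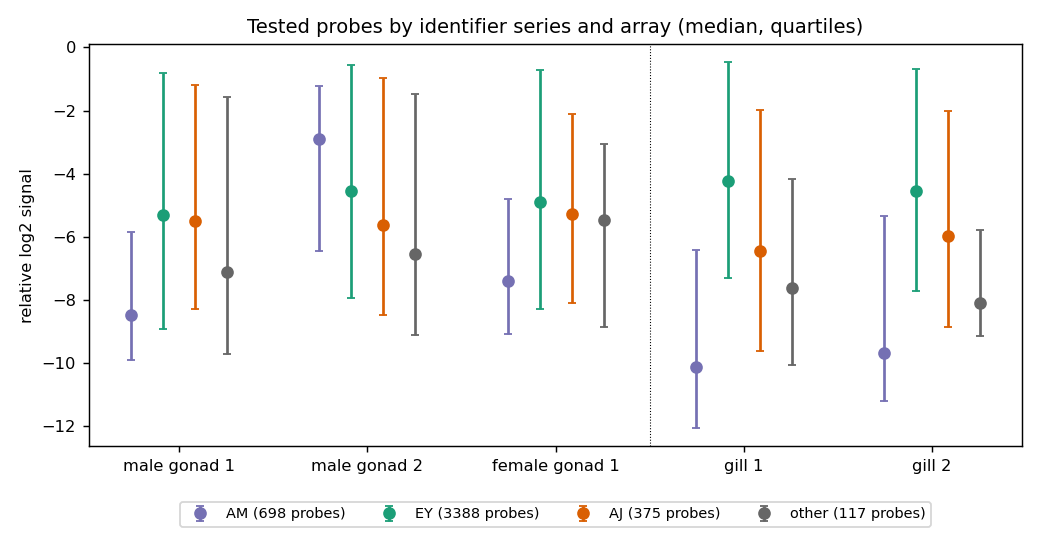
Median and quartiles (points and bars) of relative log2 signal over the tested probes of each identifier series, on the 3 gonad arrays and the 2 gill arrays. The AM median is -8.49 on male gonad 1 and -2.91 on male gonad 2, and it lies at -10.14 and -9.67 on the gill arrays, while EY medians stay between -5.30 and -4.23.

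The likeness of the gonad arrays changed when AM probes were left out. Over the 4578 tested probes, male gonad 1 and male gonad 2 correlated at Pearson r = 0.886, and male gonad 1 with female gonad 1 at 0.956. Without AM probes the 3 gonad pairs had r from 0.951 to 0.958, the gill pair had 0.956, and gonad with gill arrays had 0.880 to 0.902. Gonad arrays of different sex were thus about as alike as those of 1 sex once AM probes were left out. These values are across probes, which share arrays and are not replicates.

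One sequence outside the large series stood out after its values were seen. All 5 tested probes of the sequence EF194204 were called higher in gonads. The brightest, CUST_195_PI415929191, had relative log2 signals of -0.48, -0.27 and -0.48 on male gonad 1, male gonad 2 and female gonad 1, against -10.7 and -10.3 on gill 1 and gill 2. The groups were far apart, and the gonad arrays differed by little. Both gill arrays read it as not well above background, and as a bound it was at least 1110-fold higher in gonads. The fitted difference was 10.1 ± 0.38 log2 units (SE, limma adjusted p = 6.09e-05). The other 4 probes were at least 382-fold to at least 1080-fold higher. All 4 digestive gland and half-body arrays were brighter still for CUST_195_PI415929191, between 0.86 and 1.68.

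The next 4 probes were named by a rule for the largest differences outside AM identifiers. Higher and measured on both sides was CUST_502_PI415929191, a probe of the EY sequence EY433853. Its relative log2 signals were 0.12, 0.90 and 0.67 on male gonad 1, male gonad 2 and female gonad 1, against -9.43 and -8.63 on gill 1 and gill 2. The groups were widely separated, with a difference of 9.59 ± 0.73 log2 units (SE, limma adjusted p = 0.000494), or 771-fold. Both other tested probes of that sequence were called higher as well, dark in gill and at least 476-fold and 429-fold up. The remaining probe of the sequence was not tested, and it was well above background on no gonad array and on 1 gill array.

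The highest bound belonged to CUST_3943_PI415929191, from the sequence EY433672. It had 0.54, 0.32 and 0.12 on male gonad 1, male gonad 2 and female gonad 1, against -10.9 and -11.4 on gill 1 and gill 2. The fitted difference was 11.48 ± 0.52 log2 units (SE, limma adjusted p = 6.09e-05). As a bound, its gonad signal was at least 2550-fold higher, and the second tested probe of the sequence was at least 1010-fold higher. The remaining 2 of its 4 probes were not tested and were detected on no gonad array. Of these, CUST_2632_PI415929188 was detected on gill 1, at -9.28, but not on gill 2, at -11.91. On male gonad 1, male gonad 2 and female gonad 1 it read -13.21, -11.89 and -13.05. Probes made for the same sequence thus split into bright and dark ones on the same gonad arrays. In the deposited value table the difference of CUST_3943_PI415929191 was 5.88 log2 units and was not called (limma adjusted p = 0.324).

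Lower in gonads and measured on both sides was CUST_9272_PI415929191, from the sequence EY435974. It had -8.80, -8.92 and -8.23 on male gonad 1, male gonad 2 and female gonad 1, against -4.50 and -3.82 on gill 1 and gill 2. The gonad minus gill difference was -4.49 ± 0.39 log2 units (SE, limma adjusted p = 0.000938), a 22.5-fold difference. All 4 probes of the sequence were tested and below gill, at -3.56, -3.78, -3.62 and -4.49 log2 units, of which 2 were called. As a whole this sequence was called lower, at -3.86 ± 0.49 log2 units (SE, limma adjusted p = 0.00482). The deposited value table gave -0.03 log2 units for CUST_9272_PI415929191 (limma adjusted p = 0.996), and the gill 1 column of that table correlated at 0.578 with its own scanner values.

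The lower probe with the highest bound, CUST_1764_PI415929191 from the sequence EY434282, was not matched by its companions. It had -13.5, -13.9 and -13.3 on male gonad 1, male gonad 2 and female gonad 1, against -8.98 and -4.06 on gill 1 and gill 2. No gonad array detected it, the gill arrays differed from each other by more than 4 log2 units, and the bound was at least 52.9-fold. The fitted difference was -7.05 ± 1.38 log2 units (SE, limma adjusted p = 0.039, with no value on the male half-body array). Both other tested probes of this sequence were bright everywhere, with differences of -0.09 ± 0.30 and -0.43 ± 0.38 log2 units (SE, limma adjusted p = 0.884 and 0.509). Over the whole sequence the difference was not called (limma adjusted p = 0.229). The call of CUST_1764_PI415929191 was lost under 12 of 21 other settings, though in 11 of these the difference stayed between -7.22 and -6.79 log2 units. It was -9.55 without gill 1 and -4.60 without gill 2, and called in both.

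**Figure D4:**
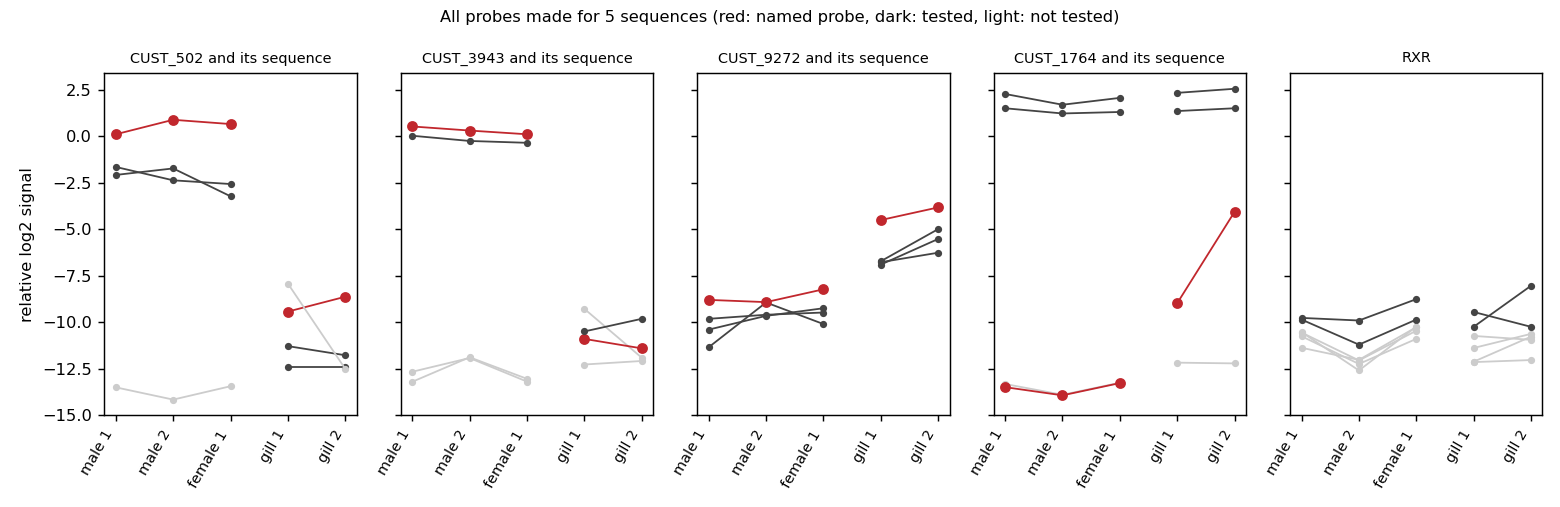
Relative log2 signal (vertical axis) on the 3 gonad and 2 gill arrays for every probe made for 4 named sequences and RXR, with the named probe in red, other tested probes dark and untested probes light. CUST_502 and CUST_3943 lie near 0 in gonads. In gill CUST_502 lies at -9.43 and -8.63, where it was detected, and CUST_3943 was dark, while the companions of CUST_1764 stay level across both tissues.

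RXR, the symbol of the retinoid X receptor, names a nuclear receptor that pairs with other nuclear receptors and in marine snails is bound by organotin compounds. Of its 6 probes, 2 were detected on all gonad arrays and tested, and each was detected on 1 gill array. The first, CUST_2_PI415987745, had -9.86, -11.21 and -9.86 on male gonad 1, male gonad 2 and female gonad 1, against -9.45 and -10.25 on gill 1 and gill 2. The second, CUST_3_PI415987745, had -9.77, -9.91 and -8.76 on the gonad arrays in that order, against -10.25 and -8.04 on the gill arrays. The groups overlapped for both probes. Differences were -0.46 ± 0.63 and -0.33 ± 0.69 log2 units (SE, limma adjusted p = 0.676 and 0.796), each smaller than its SE. The other 4 probes were dark on both gill arrays and detected on 1 or 2 gonad arrays. Their levels overlapped, from -12.60 to -10.24 on the gonad arrays and from -12.15 to -10.63 on the gill arrays. The lowest detected level was higher on gill arrays than on gonad arrays, so this detection gives no order between the tissues.

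Taken by sequence, with the tested probes of each averaged, 152 of 1916 sequences were called (7.93%, limma adjusted p below 0.05), 42 higher and 110 lower in gonads. Without AM identifiers 161 of 1625 were called (9.91%), 31 higher and 130 lower. By series, 16 EY, 13 AM, 12 AJ and 1 other sequence were higher, and the lower ones were EY sequences except for 2 AM and 3 AJ. Of the 42 higher sequences 6 rested on 1 tested probe, and the other 36 had all their probes above 0. Of the 110 lower ones 43 rested on 1 tested probe, and 65 of the other 67 had all their probes below 0. Across all 1276 sequences with at least 2 tested probes, 79.3% had probes of 1 sign. No sequence had probes called in both directions. With 1 gonad array left out the count of sequences ran from 66 of 2042 without male gonad 1 to 125 of 1933 without male gonad 2. Leaving out a gill array changed the set of sequences tested. Over 1916 tested sequences the median difference was -0.38 log2 units, against -0.58 over 2224 without gill 1 and -0.63 over 2129 without gill 2. Without AM identifiers it was -0.53 over 1625, against -0.73 over 1906 and -0.83 over 1826.

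Digestive gland and half-body samples, 2 arrays of each, gave the levels of the called probes outside the comparison. Median differences from gill for the 122 higher calls were 6.17 log2 units in gonads, 6.20 in digestive gland and 6.43 in half-body samples. For the 201 lower calls they were -3.42 in gonads, -3.36 in digestive gland and -3.08 in half-body samples. These differences share the gill arrays and are given side by side only. The digestive gland and half-body arrays also helped to set the spread in the fit.

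**Figure D5:**
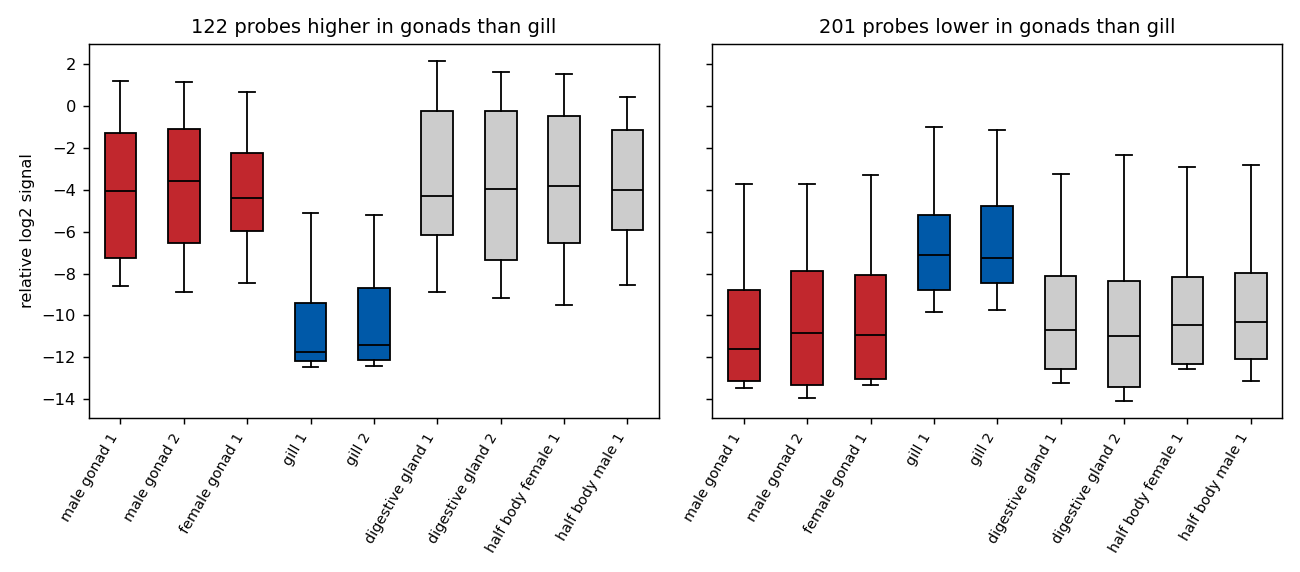
Relative log2 signal of the 122 probes called higher (left) and the 201 called lower (right) on the 9 adult arrays, as boxes with medians, quartiles and whiskers at the 5th and 95th percentiles. Gonads are red, gill blue and the other tissues grey, and in both panels the grey boxes overlap the red ones and their medians lie nearer to the red than to the blue.

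Gonads stood above gill and above all 4 other adult arrays for 17 of the 4578 tested probes (0.37%), from 16 sequences, and below all of them for 29 (0.63%). Called among these were 2 of the 122 higher calls (1.64%) and 21 of the 201 lower calls (10.45%). Every call already lay apart from gill, so the closer base is the probes whose gonad and gill arrays did not overlap. Of the 822 such probes above gill the 17 were 2.068%, and of the 1161 below gill the 29 were 2.498%. Against that base the share was not raised among the higher calls, but it was among the lower calls. Both higher calls that stood above all other adult arrays are named here after their values were seen. CUST_7150_PI415929191 had -2.34, -1.83 and -2.41 on male gonad 1, male gonad 2 and female gonad 1, against -4.87 and -4.96 on gill 1 and gill 2, and at most -3.16 in the other tissues. It was higher than gill by 2.72 ± 0.38 log2 units (SE, limma adjusted p = 0.00817), yet the only other tested probe of its sequence went the other way, at -3.40 log2 units (limma adjusted p of 0.0662, not called). CUST_3122_PI415929191 had -2.13, -2.25 and -2.27 on those gonad arrays, against -3.75 and -4.07 on gill 1 and gill 2, and at most -2.46 in the other tissues. It was 1.69 ± 0.30 log2 units higher (SE, limma adjusted p = 0.0197). The 3 other tested probes of its sequence were above gill by 1.07 to 1.28 log2 units without being called, and on none of them did all gonad arrays lie above every array of the other tissues. The 21 lower ones came from 16 sequences, 19 of them being EY probes. Of these 21 probes, 13 were detected on every gonad array and 6 on none, and the dark values of those 6 give no order against other arrays that read them dark, since the undetected level differed by array, with a median of -12.45 on the female half-body array.

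Each sex was also set against gill, in a fit with male and female gonad as separate groups. Male gonad gave 253 called probes (5.53%), 107 higher and 146 lower, and female gonad, with a single array assumed to vary like the other groups, gave 103 of 4576 (2.25%), 67 higher and 36 lower. Female gonad minus male gonad gave 0 calls with limma, with 213 probes at an unadjusted p under 0.05. The median SE of that difference was 0.75 log2 units. With 1 female array the spread within female gonad was not measured and was taken wholly from other groups, so the female counts describe that array, and 0 calls between the sexes does not show that they were alike. Without AM identifiers there were 295 calls for male gonad against gill (7.6%) and 114 for female gonad (2.94%), and again 0 between the sexes, with 231 at an unadjusted p under 0.05. The count for male gonad was 69 without male gonad 1, 90 without male gonad 2 and 438 without gill 1, and the count for female gonad was 66 without gill 2.

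The median difference of the called probes from gill was also taken on each gonad array. The 79 non-AM higher calls had median differences from the gill mean of 6.60, 7.15 and 6.57 log2 units on male gonad 1, male gonad 2 and female gonad 1. The 196 non-AM lower calls had -3.81, -3.25 and -3.19. The 43 AM higher calls had 5.16, 5.86 and 7.03, with the largest value on the female array and not on male gonad 2, the array with the highest AM level overall. A call asks for a small spread between these same arrays, so any likeness among them is part of how the probes were chosen.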

How the data were processed

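The authors hybridised Cy3-labelled RNA to single-channel Agilent arrays, per the labels' protocols. The deposited scanner files hold intensity values made with Agilent Feature Extraction 10.5.1.1, per the file headers, not scaled between arrays. A deposited table of log2 values with 14519 rows, whose scaling and centring are not given in the sources used here, was an alternative only. Its column median was 4.33 for gill 1 and 3.05 to 3.26 for the other adult arrays. The gill 1 column correlated at r = 0.578 with its own scanner values, the other adult columns at 0.984 to 0.991. What this did to the calls from that table was not tested.

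Control and outlier-flagged spots were left out, log2 signals of a probe's spots were averaged, and each array's 75th percentile over the probes detected on all 9 adult arrays was subtracted. A probe was detected where at least 0.5 of its spots were well above background. limma 3.58.1 in R 4.3.3 (lmFit, eBayes, Benjamini-Hochberg over all tested probes) was fitted to gonad, gill, digestive gland and half-body groups, 9 arrays in all. The 2 larval arrays were not used. A sequence is the identifier up to its first _ sign. The fit was tested on simulated data. The simulated noise was independent between probes and arrays, without slide, background or AM array effects, so that test does not bear on these.

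Named probes were at most 2 higher and 2 lower, outside AM identifiers, called, not overlapping, from sequences with 2 or more tested probes of 1 sign: the largest measured difference and the largest bound in each direction, with RXR always named. Members, rule and tests were chosen with earlier results of these data known. The RefSeq gene table (assembly UMN_Dpol_1.0, 51549 genes) held 0 of the 3541 sequence names, so markers of germ cells, sperm, oocytes, ciliated epithelium, haemocytes and muscle matched 0 identifiers. The number of arrays limits the precision. Alternatives covered scaling, background correction, filter, samples, covariates and threshold. Normexp used median spot signals, a choice made after seeing the data.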

Additional observations from a re-analysis of the deposited data

How the results depend on the processing

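Wherever they were tested, the 323 called probes kept their sign under the alternatives run for that fit, except in the deposited value table, where 235 of 316 did. They were chosen for a difference on these same arrays, so the kept sign is a description. Fewer stayed called. Of the 323, 121 were called again with the slide as a block and 166 with the 75th percentile over all probes. With only the gonad and gill arrays 195 were, without male gonad 1 167, and with outlier-flagged spots kept all 323. The counts below follow the order all probes, then without AM identifiers. Calls numbered 187 with the 75th percentile over all probes, 211 with only the gonad and gill arrays, 129 and 148 with the slide as a block, 139 and 139 at an adjusted p below 0.01, 76 and 58 with detection on all 5 arrays, and 19 (18 higher) and 14 (13 higher) in the deposited table. Leaving out 1 array gave 176 to 490 and 214 to 533. Sequences numbered 68 with the percentile over all probes, 98 with only the gonad and gill arrays, 60 and 74 with the slide block and 34 and 34 with detection on all 5 arrays, and 66 to 363 and 111 to 394 with 1 array left out. Male and female gonad against gill gave 134 and 67 with the percentile over all probes, 60 and 8 with detection on all 5 arrays, 137 and 61 with the slide block, and 69 to 438 and 66 to 132 with 1 array left out. Female minus male gonad stayed at 0 under 4 alternatives. The causes were not tested. The filter for detection on all 5 arrays held 3476 probes, among them 115 of the 323 called ones, and 76 of these were called again. The replicate block gave 354 calls for all probes and 288 without AM identifiers, and same-numbered gill and male gonad arrays deviated together at r = -0.03, and -0.13 without AM identifiers, while gill with digestive gland gave -0.01 and male gonad with digestive gland 0.74 (0.44 without AM identifiers). The labels tie no number to an animal or batch, and not every pair of groups deviated together, so the numbers were not taken to pair the samples. With the gill numbers crossed, a choice made after seeing the data, the counts were 303 and 290. Gill 1 is alone on its slide, so the slide block leaves gill 2 to set the gill level. The scaling moved the median difference over all probes between -0.36 and -0.12 log2 units, and that without AM identifiers up to 0.39.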
